A study of Mus musculus with 5 samples.

Results

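The enzymes that make and clear prostaglandins and leukotrienes were examined in leukocytes of mouse lung. These lipid signals, the eicosanoids, were followed through 10 enzyme genes chosen by name: Pla2g4a, Ptgs1, Ptgs2, Ptges, Alox5, Alox5ap, Lta4h, Ltc4s, Hpgd and Ptgr1. Of the 10, 9 had a row among the 14462 rows of the expression table, and all 9 passed the filter on low values, a signal of at least 10 in at least 2 libraries. Expression of Ptges, the inducible prostaglandin E synthase, was not analysed here.

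The mice carried tumours of MC38, a mouse colon adenocarcinoma line, in a model labelled MC38/MC38, and CD45+ cells were sorted from a suspension of lung cells. In the IR group (2 libraries) the tumours had been irradiated 3 days before the lungs were taken, and the ctrl group (3 libraries) carried the treatment label ctrl with the same tumour label. Dose, strain, age and the treatment of ctrl animals are not given in the sources at hand, nor do they say whether each library was 1 animal, so p-values measure only the spread between these libraries, which may be technical. Values are read counts per gene that the authors scaled between libraries, called signal here.

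Eicosanoids start from arachidonic acid, which a phospholipase cuts from membranes. Cyclooxygenases turn it into prostaglandin precursors, while 5-lipoxygenase, helped by its activating protein, turns it into leukotriene A4. From there a hydrolase makes leukotriene B4, an attractant of neutrophils, and a synthase makes leukotriene C4, which contracts airways. The lung is a major site where both families are inactivated, by dehydrogenases and reductases.

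The libraries had summed signals of 7232126 to 8414753. On the first principal component, which held 41.6% of the variance, IR replicate 2 lay at 131 and the other 4 libraries between -51.9 and -6.00. Ptprc, which encodes CD45 itself, had a signal of 15842, 15543 and 15788 in ctrl and 17369 and 27246 in IR, so the sorted protein's RNA was abundant in all 5 libraries. Of 17 lists of cell markers, 5 had a higher summed signal in both IR libraries than in any ctrl library (neutrophils, monocytes, mast cells with basophils, secretory and ciliated epithelium), and 3 a lower one (alveolar macrophages, T cells and B cells). Without the gene of highest mean signal in each list, the neutrophil and secretory sums were still higher in both IR libraries and the other 3 overlapped between groups (Nr4a1 left out for monocytes, Hdc for mast cells with basophils, Tppp3 for ciliated cells), while the 3 lower sums stayed lower. None of the 8 monocyte or 6 ciliated genes tested passed limma. The summed signal of 10 neutrophil markers was 23468 to 41813 in ctrl and 58509 and 111861 in IR. Of these 10 genes, 4 rose and 0 fell in the limma test described next, 6 did not pass, and none was at 0. The summed signal of 7 markers of club and other secretory airway epithelium, cells that a CD45 sort should remove, was 22569 to 28868 in ctrl and 125270 and 61288 in IR. Of these 7 genes, 3 rose, 0 fell and 4 did not pass. The sums of 13 alveolar and of 6 general epithelial markers overlapped between groups. Log2 fold changes were positive for 11 and negative for 2 alveolar genes, and positive for 3 and negative for 3 general ones. Of the alveolar genes, 1 rose, 0 fell and 12 did not pass. Clic5 was the gene that rose (10.9 to 41.5 in ctrl, 236.5 and 216.1 in IR, limma adjusted p = 0.0243). Sftpb was also higher in both IR libraries (616.1 to 989.6 in ctrl, 3586 and 1362 in IR) but did not pass. The groups overlapped for the other 11 alveolar genes. Among the general markers, Epcam was lower in both IR libraries (133.4 to 185.1 in ctrl, 45.8 and 74.8 in IR). Krt18 was higher in both (132.4 to 198.5 in ctrl, 381.4 and 299.2 in IR), and neither passed limma. Across the bulk libraries, more or fewer cells of a type and more or less RNA per cell cannot be told apart.

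The comparison asks how RNA of these enzymes in lung leukocytes differed once the tumour had been irradiated. Two-sided tests compared IR with ctrl by limma on log2(signal + 1) across all 12777 genes kept, with Benjamini-Hochberg adjustment over those genes and a threshold of 0.05. Of the 9 enzymes, Ptgr1 and Alox5ap rose, 0 fell and 7 did not pass. Among all genes tested, 1.50% were called, 1.14% as higher and 0.360% as lower. At an unadjusted p under 0.05 there were 4 enzymes with higher signal in IR and 0 with lower, against 7.76% and 7.20% of all genes. The fold change was positive for 8 of the 9 enzymes and for 46.8% of all genes tested. The median log2 fold change was 0.56 over the 9 enzymes and -0.05 over all genes. Both IR libraries lay above all 3 ctrl libraries for 4 enzymes (Alox5ap, Lta4h, Hpgd and Ptgr1), as they did for 15.2% of all genes, and below them for 0 enzymes, against 16.3% of all genes.

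**Figure D1:**
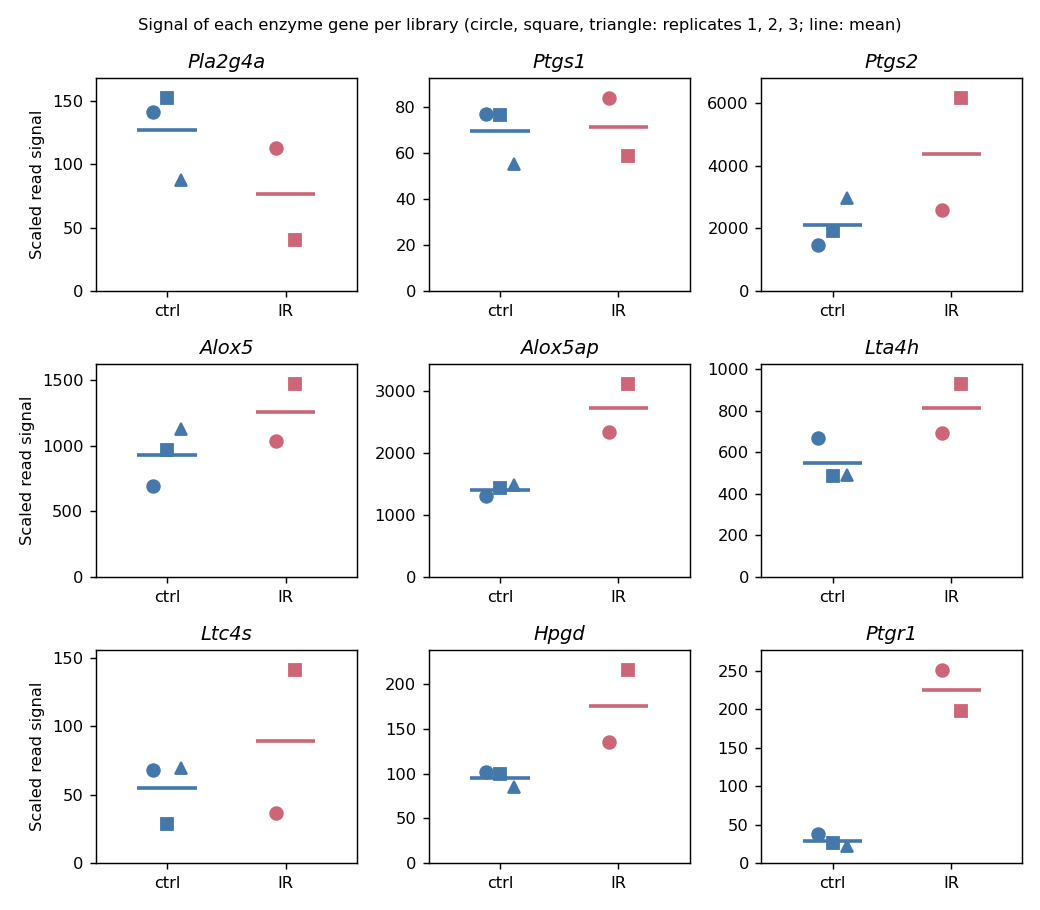
Signal (vertical axis, scaled reads, each panel with its own axis from 0) of the 9 enzyme genes in 3 ctrl and 2 IR libraries, with 1 point per library and a line at each group mean. Ptgr1 has the widest gap between groups relative to its own scale (22.6 to 37.1 against 197.6 and 251.5), while the groups overlap for Pla2g4a, Ptgs1, Ptgs2, Alox5 and Ltc4s.

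Ptgr1 encodes prostaglandin reductase 1, an enzyme that inactivates leukotriene B4 and reduces keto-prostaglandins as part of their breakdown. The gene lies on chromosome 4, 58965439 to 58987119, minus strand, in GENCODE vM21 (GRCm38, the assembly of mm10). Its signal was 37.1, 26.5 and 22.6 in ctrl and 251.5 and 197.6 in IR. Both IR libraries stood far above the ctrl libraries, with no overlap. The log2 fold change was 2.94 ± 0.63 (SE), adjusted p = 0.0201, or a 7.69-fold difference on this scale. Set against the ctrl mean, the first IR library gave 3.12 and the second 2.77, so neither library alone carried the difference. Adding 1 to each signal understates the fold of a low gene. The call was lost without ctrl replicate 1 (adjusted p = 0.0694), ctrl replicate 2 (0.0786), ctrl replicate 3 (0.0619) or IR replicate 2 (0.0705), with the log2 fold change between 2.79 and 3.14 in those fits. Per 1000 of the summed secretory epithelial signal, most of which is Scgb1a1, Ptgr1 was 0.918 to 1.64 in ctrl and 2.01 and 3.22 in IR. Against the 7 secretory markers singly, both IR libraries lay above ctrl for 5, and the groups overlapped for Scgb3a2 (41.1 to 66.9 per 1000 in ctrl, 59.4 and 79.2 in IR) and Bpifa1. Per 1000 of the summed neutrophil signal it was 0.541 to 1.58 in ctrl and 4.30 and 1.77 in IR. The part of epithelial or neutrophil RNA in the Ptgr1 result was not tested further.

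The bases before the transcription start of Ptgr1 are shown because this gene differed most between the groups. Those of Ptgs2 are shown as a gene whose signal put the 2 IR libraries on different sides of ctrl replicate 3. That also held for Alox5, Ltc4s and Pla2g4a, whose bases are not shown, and the choice was made after values were seen. Both sequences are from RefSeq (GRCm38.p6), 5′ to 3′ on the gene's own strand. That of Ptgr1 is chr4:58987120-58987328, minus strand, without the 41 bases that GENCODE vM21 counts as transcribed. That of Ptgs2 is chr1:150099781-150100030, plus strand. Capitals mark matches, on either strand, to 8 short motifs searched.
Ptgr1: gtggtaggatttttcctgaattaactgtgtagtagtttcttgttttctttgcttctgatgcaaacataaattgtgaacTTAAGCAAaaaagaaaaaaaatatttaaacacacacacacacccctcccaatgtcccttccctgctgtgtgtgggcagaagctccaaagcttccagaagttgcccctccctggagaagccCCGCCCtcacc
Ptgs2: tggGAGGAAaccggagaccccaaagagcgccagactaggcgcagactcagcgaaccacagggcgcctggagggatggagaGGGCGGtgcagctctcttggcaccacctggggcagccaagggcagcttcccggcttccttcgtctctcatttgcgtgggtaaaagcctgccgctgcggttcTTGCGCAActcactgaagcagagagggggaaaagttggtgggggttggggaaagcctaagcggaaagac
In Ptgr1 the capitals are a match to the C/EBP motif TTGCNNAA on the opposite strand, read here as TTAAGCAA, and a match to the GC box GGGCGG on the opposite strand. In Ptgs2 they are, from the 5′ end, the PU.1 core GAGGAA, the GC box GGGCGG and the palindrome TTGCGCAA, a C/EBP match that reads the same on both strands. The other motifs searched were the antioxidant response element core TGACNNNGC, the cyclic AMP response element TGACGTCA, the E-box CACGTG, the AP-1 site TGANTCA and TATAAA. None of these 5 matched within the 250 bases before the start in any of the 9 enzyme genes with a RefSeq window, which include Ptges and leave out Alox5ap. Bases after the annotated start were not searched. A site between that start and another start further downstream would be missed, so absence here does not show that a promoter lacks the motif. The C/EBP motif matched in 2 of the 9 windows, Ptgr1 and Ptgs2, and in 9.56% of 32851 windows of the same length over all genes. The PU.1 core matched in 6 of the 9 and in 23.3% of all windows, and the GC box in 5 of the 9 and in 32.7%. A match describes letters and not binding. Cebpb, which encodes a myeloid C/EBP factor, had a signal of 12479 to 15968 in ctrl and of 21705 and 29561 in IR. Nfe2l2, the other transcription factor gene read beside the motifs, had 1364 to 1555 in ctrl and 1512 and 2606 in IR, and its groups overlapped. Factors of the PU.1 core and the GC box are not given here. Whether any factor acts on these enzymes was not tested.

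Among the phospholipases, Pla2g4a encodes cytosolic phospholipase A2, which releases arachidonic acid inside the cell. Its signal was 141.1, 152.6 and 87.6 in ctrl and 113.1 and 40.3 in IR. IR replicate 1 lay within the ctrl range and IR replicate 2 below it. It was the only one of the 9 enzymes with a negative log2 fold change, -0.86 ± 0.56 (SE), adjusted p = 0.499. The 95% interval of that log2 fold change ran from -2.02 to 0.30.

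Ptgs1 and Ptgs2 encode the constitutive and the inducible cyclooxygenase, the enzymes blocked by aspirin. For Ptgs1 the signal was 76.9, 76.7 and 55.4 in ctrl and 84.1 and 58.8 in IR, and the groups overlapped. Its log2 fold change was 0.03 ± 0.61 (SE), adjusted p = 0.988, negative with libraries rescaled to the same total (-0.09), and its 95% interval from -1.24 to 1.30 covers a more than 2-fold difference in either direction. For Ptgs2 the signal was 1471, 1913 and 2973 in ctrl and 2573 and 6176 in IR. IR replicate 1 lay below ctrl replicate 3, whereas IR replicate 2 was above all other libraries. Ptgs2 had a log2 fold change of 0.97 ± 0.41 (SE), adjusted p = 0.322, and did not pass. The value was 0.34 with IR replicate 1 alone against ctrl and 1.61 with IR replicate 2 alone, where it passed (adjusted p = 0.00713). With all libraries the 95% interval ran from 0.03 to 1.92. The signal ratio of Ptgs2 to Ptgs1 was 19.1, 24.9 and 53.7 in ctrl and 30.6 and 105 in IR. Per 1000 of the summed neutrophil signal, Ptgs2 was 62.7, 61.1 and 71.1 in ctrl and 44.0 and 55.2 in IR, lower in both IR libraries than in ctrl, whereas per 1000 of the alveolar macrophage sum it was 102 to 197 in ctrl and 185 and 457 in IR. Pla2g4a and Ptgs2 lie on chromosome 1 with 138740 bases between them (Pla2g4a from 149829618 to 149961290, Ptgs2 from 150100031 to 150108227). In IR replicate 2, Ptgs2 had its highest signal of the 5 libraries and Pla2g4a its lowest.

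On the leukotriene branch, Alox5ap encodes the 5-lipoxygenase activating protein, the membrane protein that presents arachidonic acid to the lipoxygenase. Its signal was 1307, 1431 and 1483 in ctrl and 2337 and 3113 in IR. The ctrl libraries lay close together and both IR libraries were above them. Its log2 fold change was 0.94 ± 0.21 (SE), adjusted p = 0.0220, a 1.92-fold difference, with 0.73 for the first IR library and 1.15 for the second. The call was lost without ctrl replicate 1 (adjusted p = 0.174), ctrl replicate 2 (0.110), ctrl replicate 3 (0.0806) or IR replicate 2 (0.165), and the log2 fold change stayed between 0.73 and 0.98 in those fits. Per 1000 of the summed neutrophil signal, Alox5ap was 55.7, 45.7 and 35.5 in ctrl and 39.9 and 27.8 in IR. On that measure IR replicate 1 lay within the ctrl range and IR replicate 2 below it. Per 1000 of the summed signal of 12 alveolar macrophage markers, it was 90.5 to 98.4 in ctrl and 168 and 231 in IR. None of those 12 markers passed limma, but 10 had a negative log2 fold change (median -0.52) and 5 were lower in both IR libraries than in any ctrl library. Their sum without Chil3, its largest part, was 7883 to 8318 in ctrl and 4975 and 6732 in IR. Alox5ap lies on chromosome 5, 149264767 to 149288153, plus strand. The antisense gene Gm19719 shares 189 exon bases with it, and whether counting used strand is not stated.

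Alox5, the 5-lipoxygenase itself, had a signal of 689.6, 966.5 and 1130 in ctrl and 1039 and 1473 in IR. IR replicate 1 lay inside the ctrl range, and the log2 fold change of 0.44 ± 0.24 (SE), adjusted p = 0.403, did not pass. Alox5 per 1000 of the summed neutrophil signal was lower in both IR libraries (17.8 and 13.2) than in any ctrl library, and per 1000 of the alveolar macrophage sum it was 47.7 to 74.9 in ctrl and 74.6 and 109 in IR. The ratio of Alox5ap to Alox5 signal was 1.90, 1.48 and 1.31 in ctrl and 2.25 and 2.11 in IR, higher in both IR libraries than in any ctrl library. Lta4h, the hydrolase that completes leukotriene B4, had a signal of 669.3, 485.0 and 491.3 in ctrl and 691.7 and 928.8 in IR. The groups did not overlap, although IR replicate 1 exceeded ctrl replicate 1 only slightly. Lta4h had a log2 fold change of 0.56 ± 0.26 (SE), adjusted p = 0.308, and did not pass.

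Ltc4s encodes the synthase that joins glutathione to leukotriene A4. Its signal was 67.6, 28.3 and 69.3 in ctrl and 36.4 and 141.3 in IR, so IR replicate 1 lay within the ctrl range and IR replicate 2 above it. The log2 fold change was 0.49 ± 0.73 (SE), adjusted p = 0.802, and it was -0.48 without IR replicate 2. Mast cells and basophils are known sources of leukotriene C4, and the basophil protease gene Mcpt8 had a signal of 0, 41.1 and 0 in ctrl and 0.9 and 158.5 in IR. Of 7 mast cell and basophil markers with a row, 6 were tested, 1 rose (Hdc, histidine decarboxylase), 0 fell and 5 did not pass. Their summed signal was 2029 to 3746 in ctrl and 5472 and 9991 in IR, of which Hdc alone gave 5284 and 9641 in IR. Without Hdc the sum was 165.3 to 230.6 in ctrl and 187.7 and 350.1 in IR. Of the mast cell protease genes, Cma1 had a signal of 112.4, 56.6 and 134.3 in ctrl and 82.2 and 32.7 in IR, while Cpa3 and Tpsb2 had 0 to 18.7 and 0 to 5.0 over the 5 libraries. The part of these cells in the Ltc4s values was not tested. Ltc4s shares 268 exon bases with the antisense gene Gm26542, and Ptgs1 shares 148 with Gm43621 on the opposite strand.

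Hpgd encodes hydroxyprostaglandin dehydrogenase, which takes the first step in inactivating prostaglandin E2. Its signal was 102.2, 99.6 and 84.6 in ctrl and 135.5 and 216.1 in IR. All 3 ctrl libraries lay below both IR libraries. The log2 fold change was 0.84 ± 0.48 (SE), adjusted p = 0.419, and Hpgd did not pass. It was, per 1000 of the summed neutrophil signal, 2.02 to 4.35 in ctrl and 2.32 and 1.93 in IR, so IR replicate 1 lay within the ctrl range and IR replicate 2 below it. Set against the alveolar macrophage sum it was 5.61 to 7.07 in ctrl and 9.72 and 16.0 in IR, both above ctrl. Hpgd and Ptgr1 act in sequence on prostaglandins. For Hpgd the higher IR library was replicate 2, and for Ptgr1 it was replicate 1. Across the 9 enzymes, IR replicate 2 exceeded IR replicate 1 for 6 (Alox5, Alox5ap, Lta4h, Ltc4s, Ptgs2 and Hpgd) and was exceeded by it for 3 (Ptgs1, Ptgr1 and Pla2g4a). Over all genes tested, IR replicate 2 was the higher of the pair for 47.3%. Relative to the neutrophil sum, both IR libraries lay above ctrl for 1 of the 9 enzymes (Ptgr1) and below for 3. Relative to the secretory sum it was 1 (Ptgr1) and 4, and relative to the alveolar macrophage sum 4 and 0. Ptgr1 was the 1 enzyme above ctrl on all 3. The neutrophil and secretory sums were themselves higher in both IR libraries, and the alveolar macrophage sum lower, which shifts the ratio of every gene. The same counts over all genes were not taken, so these counts describe no trait particular to the enzymes.

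**Figure D2:**
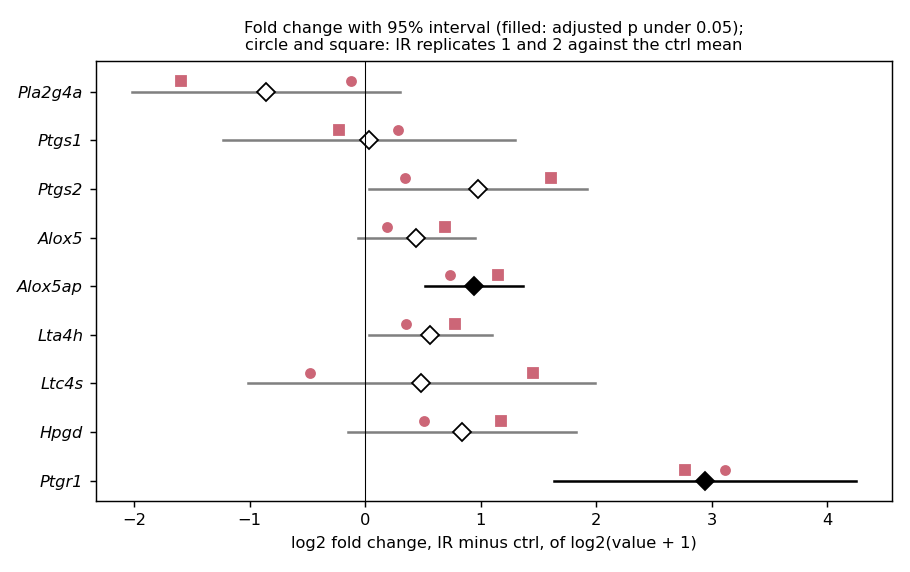
Log2 fold change of IR against ctrl (horizontal axis, on the log2(signal + 1) scale) for each enzyme gene, as a diamond with its 95% interval from limma, filled where the adjusted p was under 0.05. Circles and squares give IR replicates 1 and 2 against the ctrl mean, and for Ptgr1 and Alox5ap both lie well above 0 (3.12 and 2.77, and 0.73 and 1.15).

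To compare genes with each other, signal was divided by exon length in GENCODE vM21, with the exons of all annotated transcripts of a gene merged. That length was from 1014 bases (Ltc4s) to 6391 (Pla2g4a), with 6102 for Lta4h. It can exceed the length of the transcript that the cells express, and the order of genes below depends on it. In ctrl, Alox5ap had the highest signal per kilobase, 991 ± 63.6 (SD, n = 3). Ptgs2 followed with 463 ± 168 (SD, n = 3), Alox5 with 226 ± 54.2 and Lta4h with 89.9 ± 17.1. With these merged lengths, the ranges of these 4 genes over the ctrl libraries did not overlap. Hpgd (56.7 ± 5.64 per kilobase) and Ltc4s (54.3 ± 22.9) came next and overlapped each other. Pla2g4a (19.9 ± 5.43), Ptgs1 (17.9 ± 3.18) and Ptgr1 (12.5 ± 3.27) were lowest, and each overlapped its neighbour in that order. In IR the first 5 genes kept their order by mean signal per kilobase, with Alox5ap at 1919 ± 386 (SD, n = 2). Ptgr1 moved from the lowest place to the sixth, at 97.8 ± 16.6 per kilobase (SD, n = 2), above Ltc4s, Ptgs1 and Pla2g4a by mean, though its range lay within that of Ltc4s (35.9 to 139).

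**Figure D3:**
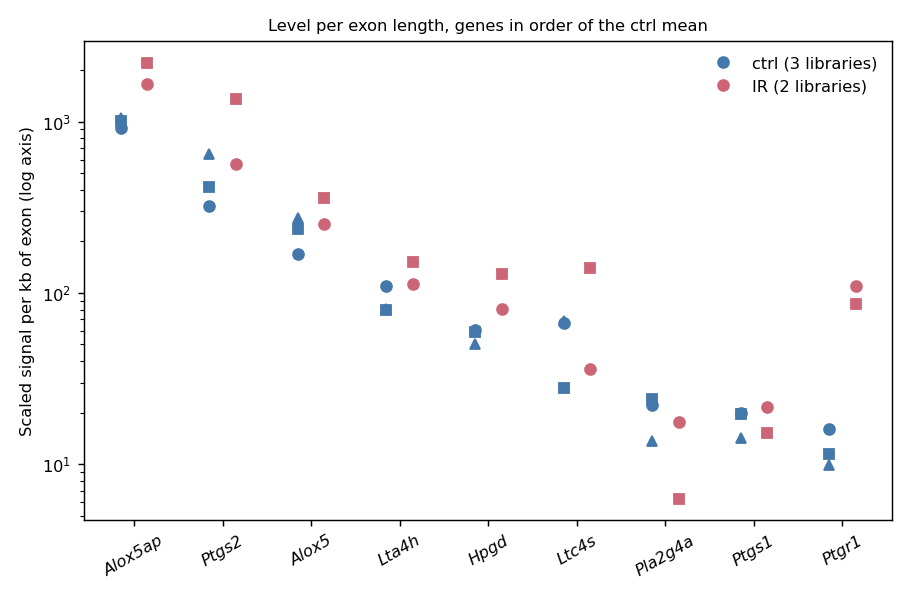
Signal per kilobase of exon (vertical log axis) for the 9 enzyme genes, ordered by their ctrl mean, with 1 point per library (blue ctrl, red IR; circle, square and triangle are replicates 1, 2 and 3). Alox5ap is highest in both groups, and Ptgr1 goes from 9.84 to 16.2 in ctrl to 86.1 and 109.5 in IR.

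The genes whose pattern over the 5 libraries was nearest to that of Ptgr1, by root mean square distance of centred log2(signal + 1) values, were Agk, Fmo2, Palmd, Six4 and Gstt3, at distances of 0.171 to 0.239. Only Fmo2, a flavin monooxygenase abundant in lung, was itself called (limma adjusted p = 6.25e-05). Nearest to Alox5ap were Rnf181, Ergic1, Selplg, Efcab2 and Lbr, at distances of 0.0621 to 0.0708. Of these, Selplg, the leukocyte ligand for selectins (limma adjusted p = 0.00600), and Lbr, the lamin B receptor of the nuclear envelope whose loss impairs neutrophil nuclear lobing (0.0258), rose. Selplg had a signal of 4593 to 5326 in ctrl and 8349 and 12250 in IR, and Lbr of 1840 to 2212 in ctrl and 3092 and 4310 in IR. Likeness over these 5 libraries was the rule that chose them.

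**Figure D4:**
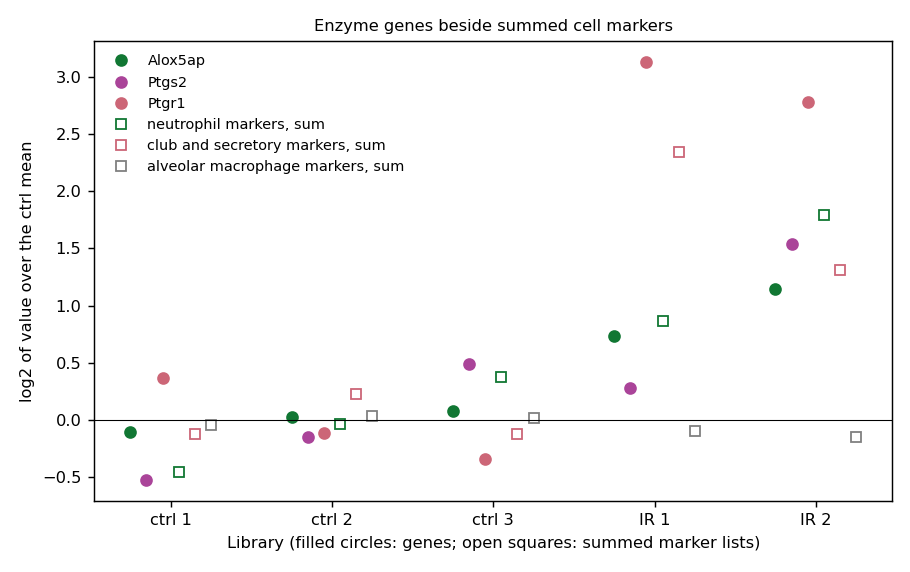
Log2 of each library's value over the ctrl mean (vertical axis) for Alox5ap, Ptgs2 and Ptgr1 (filled circles) and for the summed signal of neutrophil, secretory epithelial and alveolar macrophage markers (open squares). Neutrophil markers, Alox5ap and Ptgs2 peak in IR replicate 2, and secretory markers and Ptgr1 in IR replicate 1. From IR replicate 1 to IR replicate 2 the secretory sum went from 125270 to 61288, and Ptgr1 from 251.5 to 197.6. The alveolar macrophage sum, of which Chil3 is the largest part, lies slightly below the ctrl libraries (14449 to 15296 in ctrl, 13937 and 13501 in IR). Whether genes that peak in the same library share a source cell was not tested.

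Outside the 9 enzymes, a list of 59 further genes of the pathway was read in 6 roles. Of these, 42 had a row and 37 were tested: 2 rose (Anxa1 and Ggt5), 0 fell and 35 did not pass. Among all genes tested, 1.14% were called higher and 0.360% lower. At an unadjusted limma p under 0.05, 6 of the 37 were higher and 1 lower, against 7.76% and 7.20% of all genes. The median log2 fold change of the 37 was 0.22, against -0.05 over all genes.

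Among 7 genes of arachidonate supply, Anxa1, which encodes annexin A1, a glucocorticoid-induced inhibitor of phospholipase A2, had a signal of 1932, 2104 and 2220 in ctrl and 3726 and 6593 in IR. Both IR libraries lay above ctrl, and the log2 fold change was 1.25 ± 0.22 (SE), adjusted p = 0.00358. Dropping ctrl replicate 1 (0.0851), ctrl replicate 2 (0.0786) or IR replicate 2 (0.0689) ended the call. The other 6 did not pass. Of these, Pla2g7, the secreted enzyme that breaks down platelet-activating factor, had a signal of 2542 to 3439 in ctrl and 4291 and 9240 in IR, and lay at the edge of the threshold (log2 fold change 1.13 ± 0.27, limma adjusted p = 0.0505). Pla2g15, a lysosomal phospholipase, had a log2 fold change of -0.31.

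None of 7 terminal prostanoid synthases passed limma (1 had an unadjusted p under 0.05), with 4 positive and 3 negative fold changes. Tbxas1, thromboxane synthase, had a signal of 196.0, 248.5 and 262.1 in ctrl and 165.4 and 98.3 in IR. Both IR libraries were below ctrl, with a log2 fold change of -0.87 ± 0.41 (SE), adjusted p = 0.315. Cbr1, a carbonyl reductase that can convert prostaglandin E2, had a log2 fold change of 1.07.

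Of 4 genes tested among other lipoxygenases and relatives of the leukotriene C4 synthase family, none passed limma, and 2 had an unadjusted p under 0.05. Cotl1, a coactosin-like protein that binds 5-lipoxygenase, had a signal of 5690 to 6658 in ctrl and 8108 and 9543 in IR, and a log2 fold change of 0.55 (limma adjusted p = 0.137). Alox15, which makes hydroxy acids and lipoxin precursors, had 13.7 to 41.5 in ctrl and 132.7 and 63.0 in IR, with no overlap (log2 fold change 1.88 ± 0.82, limma adjusted p = 0.283).

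Among 10 genes of transport and breakdown, Ggt5, the gamma-glutamyl transferase that converts leukotriene C4 to D4, rose and the other 9 did not pass. Its signal was 54.0, 76.7 and 71.5 in ctrl and 186.0 and 389.2 in IR, with both IR libraries above ctrl. The log2 fold change was 1.997 ± 0.50 (SE), adjusted p = 0.0419. Among fits lacking 1 library it passed only without IR replicate 1 (adjusted p = 0.120 to 0.393 in the other 4), and it missed the threshold with no filter on low values (0.0578) or with robust estimation off (0.0635). Cyp4f18, a cytochrome that oxidises leukotriene B4 in mouse neutrophils, and Abcc1, an exporter of leukotriene C4, had log2 fold changes of 0.41 and -0.38.

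No receptor was called. Among them, 0 of 4 prostanoid receptors and 0 of 5 receptors of leukotrienes and lipoxins passed limma, and 1 and 0 had an unadjusted p under 0.05. Ptger4, the prostaglandin E2 receptor EP4, had a signal of 763.7 to 941.8 in ctrl and 651.5 and 857.3 in IR, and its groups overlapped. Ptgir, the prostacyclin receptor, had 8.2 to 50.7 in ctrl and 95.4 and 66.4 in IR, with no overlap and a log2 fold change of 2.03 ± 0.94 (SE) that did not pass. Fpr2, a receptor for annexin A1 and lipoxin A4, had 148.7 to 203.6 in ctrl and 217.8 and 358.9 in IR, and Cmklr1, a receptor for chemerin and resolvin E1, 134.4 to 196.4 in ctrl and 209.4 and 250.5 in IR. Both had IR libraries above ctrl, with log2 fold changes of 0.75 and 0.45 that did not pass.

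**Figure D5:**
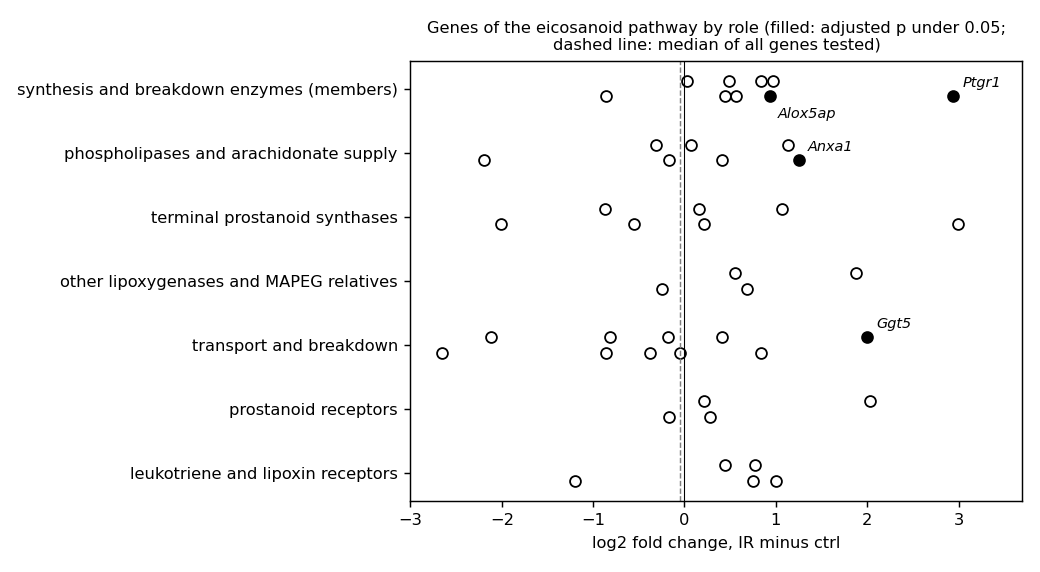
Log2 fold change of IR against ctrl (horizontal axis) for the 9 enzyme genes and the 37 further pathway genes tested, grouped by role, with 1 circle per gene, filled where the limma adjusted p was under 0.05. The 4 filled circles (Ptgr1, Alox5ap, Anxa1 and Ggt5) all lie above 0, and the other genes spread on both sides of the median of all genes, the dashed line at -0.05.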

How the data were processed

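Libraries of CD45+ lung cells were made with the SMARTer Pico kit, version 2, a stranded kit for small amounts of total RNA, per the labels' protocols. HISAT2, HTSeq and mm10 are named in the submitters' processing notes, with no version or role. The deposited table holds a signal per gene and library that the authors scaled from read counts in a way that no source at hand describes. Values have 1 decimal. Low values lie near multiples of 1 step per library (0.726 to 0.934), and of those up to 20 steps, 86.1% (ctrl replicate 3) to 100% were whole within 0.1 step. Over all values above 0 it was 28.9% to 48.0%, so a count test could not be fitted to reads read back from the table. Dividing each total by its step gives an approximate depth of 8030000 to 10200000 reads. No label gives a batch or pairing, and replicate numbers follow accession order.

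A gene was kept where 2 or more libraries had a signal of 10 or more. Signals were fitted as log2(signal + 1) with limma 3.58.1 (R 4.3.3, statmod 1.5.0), mean trend, robust estimation and no covariate. The procedure was run on simulated data in which both groups were given the spread of the ctrl libraries. The 2 IR libraries here lay far apart, so that run does not measure the error rate on these data. An exact permutation test over the 10 splits of 5 libraries cannot give a p under 0.1, so none was used. The enzyme genes, the pathway and marker lists and the tests were chosen with earlier results of these data known. Named genes were all 9 enzymes with a row, each pathway gene called and the 2 with the highest mean signal among the others of each role, and the 5 nearest patterns of each called enzyme. Markers named beside a result, motifs and the windows shown were chosen after values were seen. Coordinates and exon lengths are from GENCODE vM21. Alternatives were the pseudocount, filter, scaling, robust estimation, library weights and each library left out.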

Additional observations from a re-analysis of the deposited data

How the results depend on the processing

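Ptgr1 and Alox5ap passed the limma test under all 9 alternatives that kept the 5 libraries, with log2 fold changes of 2.78 to 3.03 (adjusted p = 0.00856 to 0.0340) and 0.81 to 0.96 (0.0123 to 0.0312). Leaving out 1 library gave between 0 and 3 enzymes called, the 3 without IR replicate 1, where Ptgs2 joined them. It was 0 without any one of the other 4 libraries, where 2 to 4 enzymes had an unadjusted limma p under 0.05. A single IR library left in the fit was assumed to vary like the ctrl libraries. Over further pathway genes the count called was between 0 and 5 with 1 library left out, against 2 with all, and 1 with no filter on low values. Over all genes it was between 19 and 1006, against 192, and 293 after quantile normalization. Of 126 enzyme values under the 14 alternatives, 113 kept their direction and side of the threshold. Ptgs1 turned negative with libraries rescaled to the same total (log2 fold change -0.090), without ctrl replicate 3 (-0.13) and without IR replicate 1 (-0.22), in a leave-one-out range of -0.22 to 0.28. Ltc4s turned negative without IR replicate 2, in a range of -0.48 to 1.45. The causes were not tested. Rescaling to the same total moved the all-gene median log2 fold change from -0.05 to -0.17. No paired analysis was possible because the labels give no replicate numbers that the groups share. With 3 against 2 libraries and scaled values, differences such as that of Ltc4s or Ptgs1 could not be resolved at this size.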
